A study of Mus musculus with 34 samples.

Results

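The genes described here are 10 that are known from the granules and cytosol of neutrophils, out of 18193 genes with a probe set of a single symbol on the array and 12723 that could be tested. They were listed by name, though earlier results of these data were known when they were chosen. All 10 passed the filter on low signal on all 34 arrays, and each is read by 1 probe set. Mpo (probe set 1415960_at), Elane (1422928_at), Prtn3 (1419669_at) and Ctsg (1419594_at) encode proteins of the primary granules. S100a8 (1419394_s_at), S100a9 (1448756_at), Ltf (1450009_at), Camp (1419691_at), Ngp (1418722_at) and Lcn2 (1427747_a_at) are made later in neutrophil maturation and are called the later genes below. S100a8 and S100a9 proteins lie mainly in the cytosol, so the name granule gene holds for them only loosely.

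The samples were unfractionated livers of untreated mouse fetuses, each reported as 1 array of RNA. Age is given as embryonic day 14.5 in the sample labels and as day 13.5 to 14.5 for the series. Of the retinoblastoma family, Rb1, p107 (encoded by Rbl1) and p130 (encoded by Rbl2) were missing singly or together. There were 2 wild type arrays, 1 of the p107 KO, 3 of the p130 KO, 6 of the p107;p130 DKO, 2 of the Rb1 KO, 5 of the Rb1;p107 DKO, 9 of the Rb1;p130 DKO and 6 of the Rb1;p107;p130 TKO. KO stands for knockout, DKO for a double and TKO for a triple knockout. The labels give no strain, allele or Cre driver and do not say whether the arrays of a genotype came from separate animals, so the tests reflect the spread between arrays, which may be technical. In whole liver, fewer neutrophil-lineage cells and less RNA per cell cannot be told apart.

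Neutrophils pack their proteins into granules in the order in which the genes are switched on. Promyelocytes make the primary granules, which hold myeloperoxidase and serine proteases. Myelocytes and later stages make the secondary granules, with lactoferrin and the cathelicidin precursor, while the primary granule genes are shut off. Fetal liver makes most of the blood at this age and holds mostly red cell precursors beside hepatocytes, macrophages, megakaryocytes and a smaller granulocyte lineage. The Ets factor PU.1 and the C/EBP factors are known to drive these genes, and Rb family proteins restrain the cell cycle by binding E2F factors.

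Both sets of genes are shown by their promoters, because the 2 sets differ in the letters found there. All 10 had a promoter in RefSeq (GRCm38.p6), and the 250 bases upstream of the start were searched on both strands. The letters AGGAAGT, a PU.1-type Ets core, were found in 4 of 4 primary granule promoters, each time on the gene's own strand, and in 1 of 6 later ones (S100a8, on the other strand). Of 32851 promoters of the same length, 7.69% held them. In the primary granule promoters below, AGGAAGT is in capitals and each sequence runs 5′ to 3′ on the gene's strand.
Mpo, chr11:87793534-87793607, plus strand: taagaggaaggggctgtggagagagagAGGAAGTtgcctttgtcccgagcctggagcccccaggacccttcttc
Elane, chr10:79886188-79886274, plus strand: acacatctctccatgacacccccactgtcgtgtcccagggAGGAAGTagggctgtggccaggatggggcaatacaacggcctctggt
Prtn3, chr10:79879533-79879619, plus strand: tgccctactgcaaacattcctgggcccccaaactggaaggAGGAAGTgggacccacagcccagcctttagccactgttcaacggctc
Ctsg, chr14:56102734-56102820, minus strand: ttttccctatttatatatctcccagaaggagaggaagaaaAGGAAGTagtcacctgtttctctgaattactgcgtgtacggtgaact

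The letters GCAAT, or ATTGC on the other strand, form the core of C/EBP sites. They were found in 6 of 6 later promoters and in 2 of 4 primary granule ones (Mpo and Elane), against 23.1% of the 32851 promoters. The promoters of 4 later genes are shown with these letters in capitals. Ltf holds them at 2 places, and in Camp, Ngp and Lcn2 the match starts within 2 bases of the same distance, at -137, -139 and -139 from the start.
Ltf, chr9:111019152-111019265, plus strand: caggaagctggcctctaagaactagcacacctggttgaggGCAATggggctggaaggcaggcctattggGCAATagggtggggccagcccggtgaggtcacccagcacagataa
Camp, chr9:109849549-109849633, minus strand: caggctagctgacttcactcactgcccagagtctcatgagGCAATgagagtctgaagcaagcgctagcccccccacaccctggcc
Ngp, chr9:110419629-110419713, plus strand: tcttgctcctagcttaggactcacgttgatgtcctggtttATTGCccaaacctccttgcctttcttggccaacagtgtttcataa
Lcn2, chr2:32387834-32387918, minus strand: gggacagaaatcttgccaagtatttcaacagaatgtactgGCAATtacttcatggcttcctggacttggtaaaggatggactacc

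The E2F letters TTTCCCGC, TTTCGCGC, TTTGCCGC and TTTGGCGC were in 0 of the 10 promoters and in 1.86% of all. These motifs were chosen after the sequences had been seen, and a match describes letters only. Several members lie near each other in the genome. Prtn3 and Elane are neighbours on chromosome 10, and S100a8 and S100a9 on chromosome 3, with no protein-coding gene between them. Camp and Ngp on chromosome 9 have 8 protein-coding genes between them, and Ngp and Ltf have 20. Ctsg shares chromosome 14 with the deleted Rb1, 176 protein-coding genes away, and Lcn2 shares chromosome 2 with Rbl1, 1187 away.

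The values are MAS5 signals, a linear brightness of each probe set, rescaled here so that the 2% trimmed mean of every array is 500. Array medians were 80.1 to 115.1. The targeted genes followed their labels for Rb1, at 5208 to 9085 on the 12 arrays that carry it and 756 to 1746 on the 22 that do not, and for Rbl1, at 1185 to 2713 on 16 arrays and 43.9 to 139 on 18. Rbl2 was dim, at 246 to 481 on 10 arrays and 105 to 265 on 24, and these ranges touch. The arrays were also clustered into 3 groups (15, 10 and 9 arrays) by signal differences between probe sets of the same gene. Genotype and the 10 members did not enter this step, and the number of groups was set at 3, not found. These array groups are inferred and are no recorded batch. They are spread unevenly: 9 of 10 arrays in group 2 lack p107, and 9 of 9 in group 3 lack p130. Sex was inferred from Xist and Y-linked genes and is also uneven. All 3 p130 KO arrays were read as XX, both Rb1 KO arrays as XY, and 5 of the 6 p107;p130 DKO arrays as XY. The mean signals of different probe sets are not compared.

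Among the primary granule genes, Elane varied most. Elane encodes neutrophil elastase, a serine protease. Its signal was 2414 and 1024 on the wild type arrays, 1258 on the p107 KO array, and 1305, 5293 and 1644 on the p130 KO arrays. In the Rb1 KO it was 1326 and 3740, and in the Rb1;p107 DKO it was 2201, 1714, 1925, 1718 and 1668. The lowest, median and highest values were 1188, 1337 and 2679 in the p107;p130 DKO, 285, 2186 and 4685 in the Rb1;p130 DKO, and 427, 1186 and 1925 in the TKO. The Rb1;p130 DKO thus held the lowest array of the series, while the highest was p130 KO array 2. The 7 genotypes with more than 1 array all overlapped each other. The fold between the highest and lowest array was 18.6. The mean was lowest in the TKO, at 1172 ± 563 (SD, n = 6), and highest in the p130 KO, at 2747 ± 2211 (SD, n = 3).

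Ctsg, which encodes the protease cathepsin G, followed the same pattern. It stood at 2181 and 1973 in the wild type, 2200 in the p107 KO, 1697, 5341 and 2138 in the p130 KO, and 1332 and 3647 in the Rb1 KO. The Rb1;p107 DKO arrays had 1879, 1910, 2995, 2385 and 2239. Lowest, median and highest were 1385, 1915 and 2740 in the p107;p130 DKO, 628, 2028 and 4624 in the Rb1;p130 DKO, and 615, 1422 and 2566 in the TKO. Again the p130 KO array 2 was highest, and the lowest arrays were in the TKO and Rb1;p130 DKO. The range was 8.68-fold.

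Mpo encodes myeloperoxidase, the enzyme that makes hypochlorous acid. It ranged 3.41-fold, from 5952 to 20312. Its means were 13395 ± 2619 (SD, n = 2) in the wild type, 15704 ± 3737 (n = 3) in the p130 KO, 13364 ± 2227 (n = 6) in the p107;p130 DKO and 12294 ± 3988 (n = 2) in the Rb1 KO. They were 16289 ± 3294 (n = 5) in the Rb1;p107 DKO, 13338 ± 4602 (n = 9) in the Rb1;p130 DKO and 12194 ± 5296 (n = 6) in the TKO. Mpo was the only member whose highest mean was not in the p130 KO. Prtn3, which encodes proteinase 3, ranged 5.09-fold, from 1544 to 7860, with its highest mean, 4731 ± 2749 (SD, n = 3), in the p130 KO and its lowest, 2819 ± 945 (n = 6), in the TKO. The TKO therefore had the lowest mean for all 4 primary granule genes.

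Camp, the precursor of the antimicrobial peptide CRAMP, had the widest genotype means among the later genes. Its signal was 3465 and 1759 in the wild type, 2215 in the p107 KO, 2980, 8119 and 4146 in the p130 KO, and 2695 and 5036 in the Rb1 KO. The Rb1;p107 DKO arrays had 2908, 2489, 3098, 2057 and 2620, a narrow band at the lower end. Lowest, median and highest were 1896, 2961 and 4390 in the p107;p130 DKO, 1978, 4218 and 7591 in the Rb1;p130 DKO, and 1983, 2600 and 7779 in the TKO. All pairs of the 7 replicated genotypes overlapped.

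Ltf encodes lactoferrin, the iron-binding protein of secondary granules. Its signal was 2005 and 2195 in the wild type, 2076 in the p107 KO, 2662, 3736 and 3200 in the p130 KO, and 1829 and 3271 in the Rb1 KO. The Rb1;p107 DKO had 2013, 3496, 2986, 2043 and 2383. Lowest, median and highest were 1785, 2235 and 2502 in the p107;p130 DKO, 1881, 2974 and 3815 in the Rb1;p130 DKO, and 1350, 2451 and 7039 in the TKO. The 3 p130 KO arrays lay above both wild type arrays and above all 6 p107;p130 DKO arrays. TKO array 1 was the brightest of the series.

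Ngp encodes neutrophilic granule protein, a cathelicidin relative. It ranged 4.24-fold, from 3866 on TKO array 3 to 16376 on TKO array 1, so both ends of the series lay in 1 genotype. Lcn2 encodes lipocalin 2, which binds bacterial siderophores, and ranged 4.50-fold, from 810 to 3643. S100a8 and S100a9 encode the subunits of calprotectin and varied least, by 2.98-fold and 3.38-fold. S100a8 was 17270 and 20093 in the wild type and 20773, 30039 and 21880 in the p130 KO, which did not overlap. It was lowest on TKO array 5, at 10891, and S100a9 was lowest on the same array, at 6911. On the single p107 KO array, 7 of the 10 genes lay within the wild type range, while Ctsg (2200), S100a8 (20601) and S100a9 (11147) lay just above it.

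**Figure D1:**
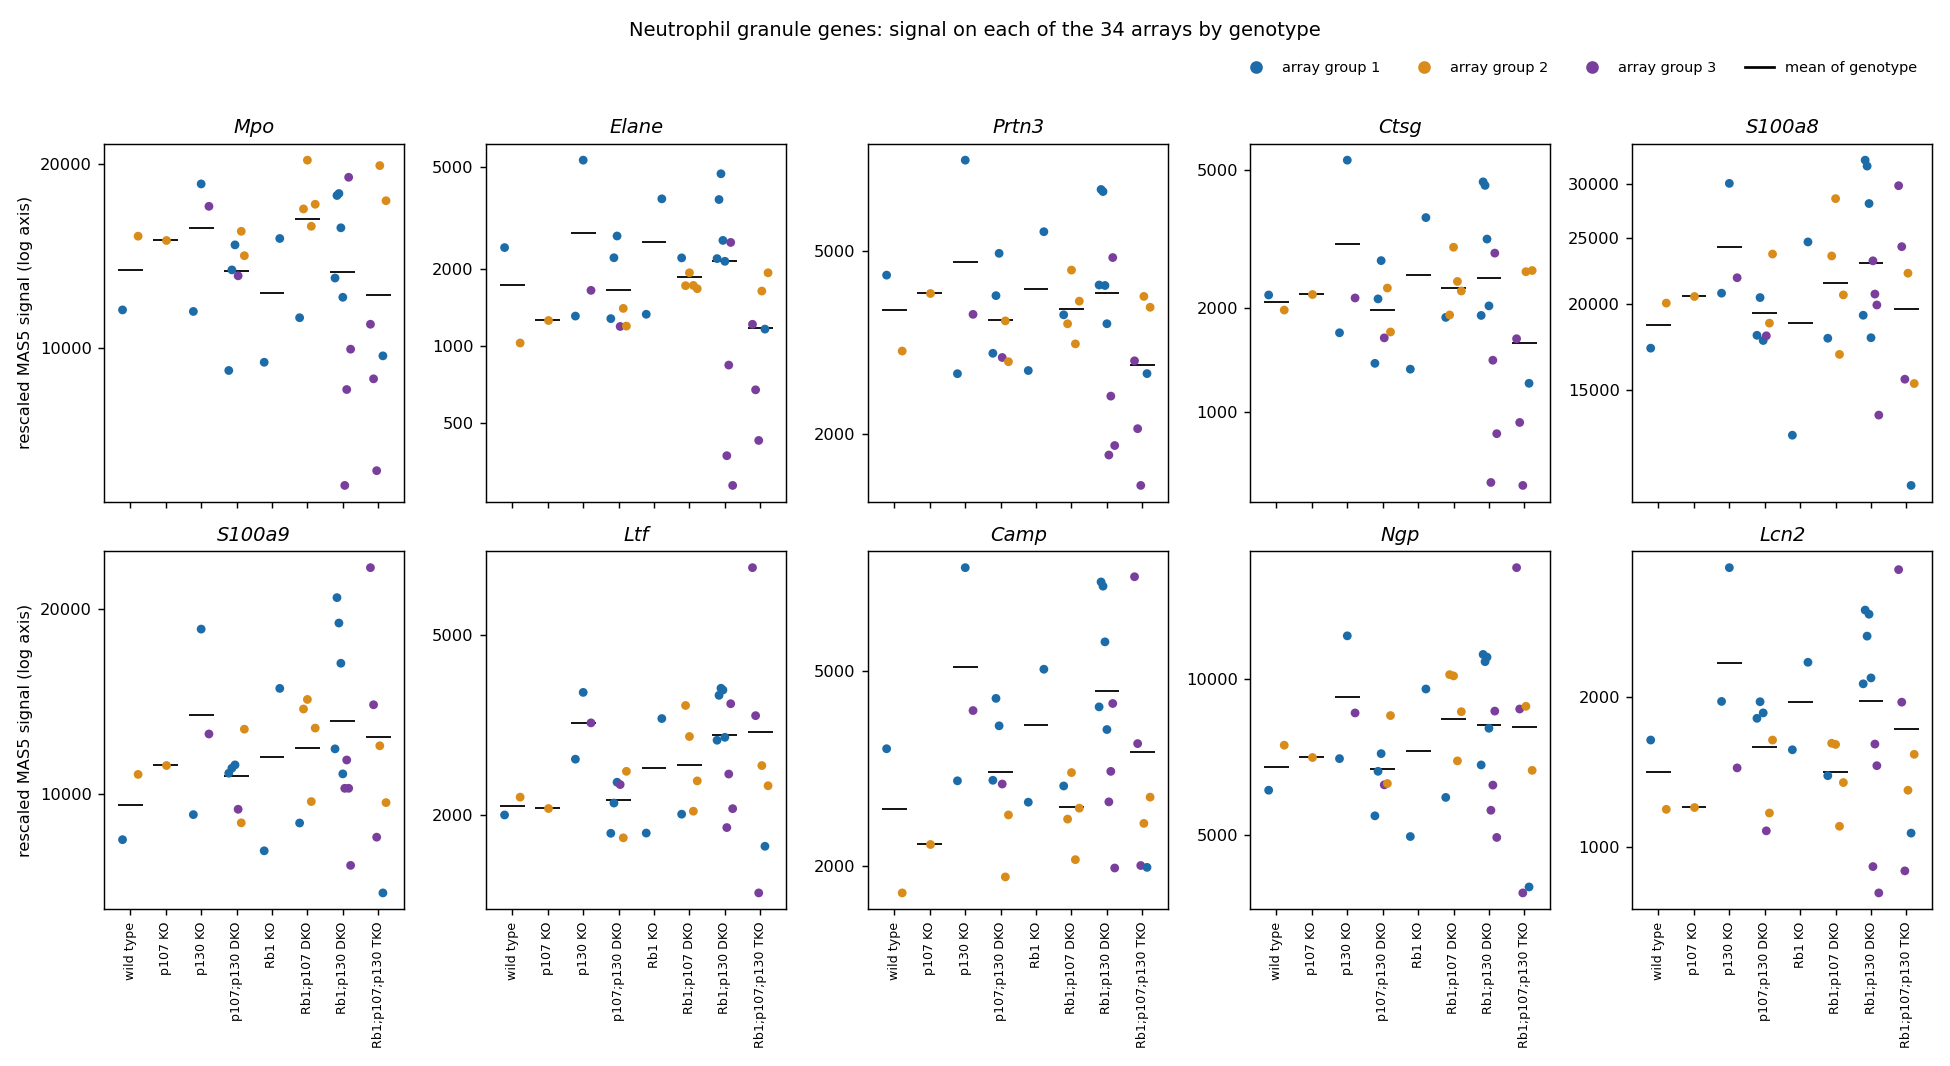
Rescaled MAS5 signal (log axis) of the 10 genes on each array, by genotype; points are arrays coloured by inferred array group, and bars are genotype means. Elane runs from 285 to 5293 while S100a8 stays between 10891 and 32477, and in all panels the 7 replicated genotypes, ordered by mean, overlap their neighbours.

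Ordered by mean log2 signal, the p130 KO came first for 9 of the 10 genes. All 6 neighbouring pairs in the order of the 7 replicated genotypes overlapped in range, for every member. The order is therefore not resolved beyond the spread between arrays. The p130 KO lead rests on few arrays. Without p130 KO array 2, the highest of all for Elane, Prtn3, Ctsg, Camp and Lcn2, the p130 KO came first for 0 of 10, and without Rb1 KO array 1, which leaves 1 Rb1 KO array, also for 0. Without wild type array 2 it came first for 7. The TKO stayed lowest for all 4 primary granule genes with any single array left out, except wild type 1 (3 of 4), TKO 3 (3 of 4) and Rb1 KO 2 (2 of 4).

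No member was called in any of 15 comparisons by limma at a Benjamini-Hochberg adjusted p under 0.05. Over all genes, the additive fit called 2.26% for Rb1 loss, 1.14% for p107 loss and 0.0157% for p130 loss. The share called was 0.377% for TKO against p107;p130 DKO, 0.118% for Rb1;p130 DKO against p130 KO, and 0.00786% for Rb1 KO against wild type. It was 0.0236% for p107;p130 DKO against p130 KO, 0.0236% for TKO against Rb1;p130 DKO and 0.00786% for Rb1;p107 DKO against Rb1 KO. It was 0% for p130 KO against wild type and for Rb1;p130 DKO against Rb1 KO, and 0.00786% for TKO against Rb1;p107 DKO. Rb1;p107 DKO against Rb1;p130 DKO had 0.267%, TKO against wild type 0.0786%, and the Rb1 by p107 interaction with p130 absent 0%. With so few genes called in most comparisons, a count of 0 among 10 members lies near the background. At an unadjusted p under 0.05 the count was 1 of 10 for p107 loss and 1 of 10 for Rb1;p107 DKO against Rb1;p130 DKO, Camp both times, and 0 of 10 in the other comparisons. Over all genes, 17.0% and 18.3% passed that limit in these 2 comparisons, so the members' count does not exceed the background. In the others the share ran from 1.64% (interaction) to 11.8% (Rb1;p107 DKO against Rb1 KO), with 11.3% for Rb1 loss and 10.1% for p130 loss. A count of 0 of 10 lies near the background there too.

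For Rb1 loss over all backgrounds, the 4 primary granule genes had log2 differences from -0.22 to -0.13 and the 6 later genes from 0.00 to 0.20. The median over all 12723 genes was -0.016. The 95% interval of Ltf, the largest positive difference, was -0.11 to 0.50, and that of Elane was -0.84 to 0.40. A difference of more than 1.42-fold upwards lay outside the intervals of all 10 members, and the lowest limit was 0.56-fold, for Elane. These intervals are those of the limma fit and are not adjusted for the number of genes.

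For p107 loss, Camp had a log2 difference of -0.42 ± 0.18 (SE; limma adjusted p = 0.222), with a 95% interval of -0.79 to -0.06. The other members ranged from -0.34 for Elane to 0.00 for Mpo, and 9 of 10 were below 0, against a median of -0.0027 over all genes. For p130 loss, the 4 primary granule genes had values from -0.31 to -0.18 and the later genes from -0.01 for Ngp to 0.36 for Camp (limma adjusted p = 0.540). None passed the test in either term. With array group as a block, all 6 later genes, Camp included, lay between -0.21 and -0.12 for p107 loss. Within array group 3 they lay between 0.12 and 0.43, so the sign for Camp was reversed there.

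Direct contrasts gave wider intervals. TKO against p107;p130 DKO, which compares Rb1 loss with p107 and p130 absent, had -0.57 for Elane (95% interval -1.58 to 0.44), -0.45 for Ctsg and 0.29 for Ltf. TKO against Rb1;p107 DKO, which compares p130 loss, had -0.79 for Elane and -0.50 for Mpo (95% interval -1.03 to 0.03; limma adjusted p = 0.676). TKO against Rb1;p130 DKO and p107;p130 DKO against p130 KO had all 10 members below 0, with medians of -0.23 and -0.45 against -0.00099 and 0.0035 over all genes. Without p130 KO array 2 the latter had 7 of 10 below 0 and a median of -0.10. With inferred sex as a block the latter had 10 of 10 below 0 and a median of -0.61. The former had 7 of 10 without TKO array 3 (median -0.13), 8 of 10 without TKO array 5 (-0.11) and 3 of 10 within array group 3 (0.31). It had 10 of 10 without Rb1;p130 DKO array 2 (-0.15), without Rb1;p130 DKO arrays 8 and 9 (-0.39), without TKO array 1 (-0.44), with the replicate block (-0.44) and within array group 1 (-1.22). In Rb1;p107 DKO against Rb1;p130 DKO, Camp had -0.67 ± 0.30 (SE; limma adjusted p = 0.229). Rb1;p130 DKO against p130 KO, which compares Rb1 loss, also had all 10 members below 0 (median -0.22 against -0.0068 over all genes). Its values changed sign in 10 of 120 with 1 array left out and in 28 of 160 under other settings. In p130 KO against wild type all 10 were above 0 (median 0.43 against 0.028). There the sign changed in 5 of 50 values with 1 array left out and in 3 of 150 under other settings. Both contrasts share the p130 KO arrays with p107;p130 DKO against p130 KO. Several of these contrasts share arrays, so their signs are not independent of each other.

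**Figure D2:**
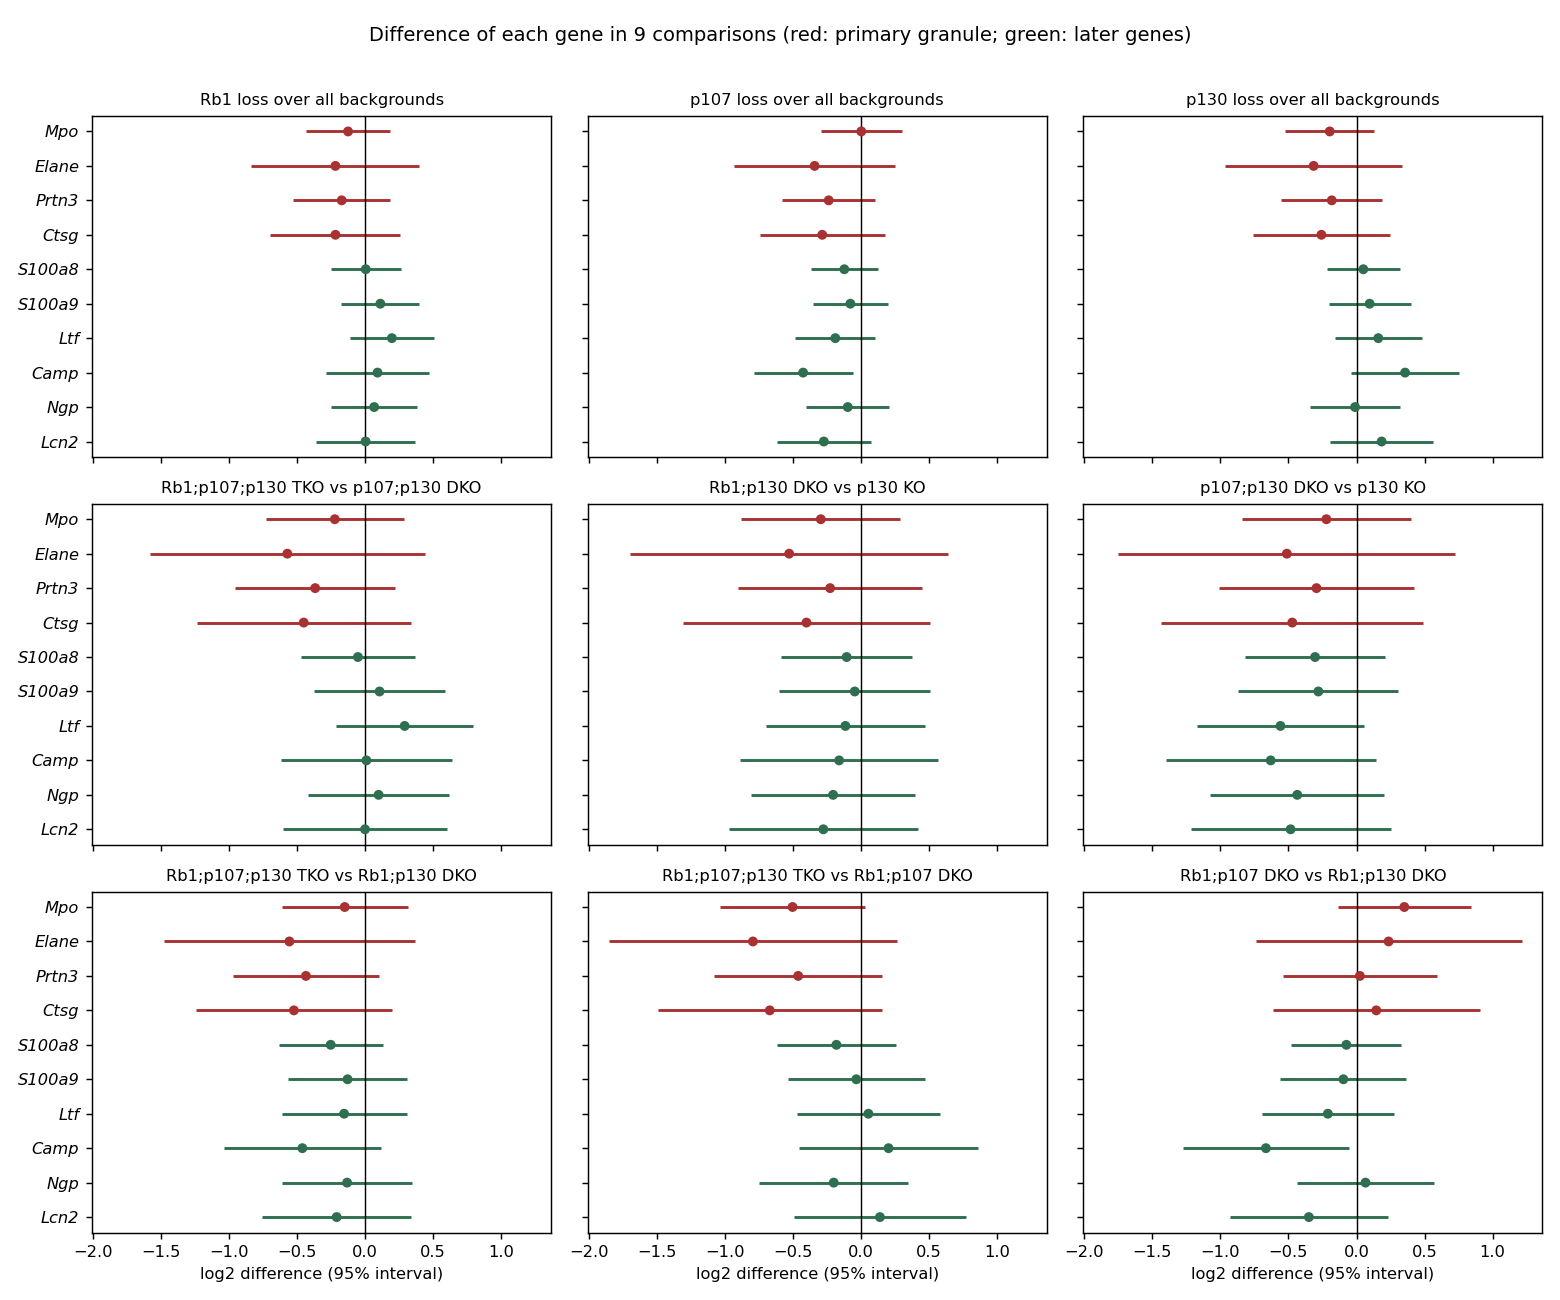
Log2 difference (x axis) of each gene in 9 comparisons from the limma fit; points are estimates and lines are 95% intervals, red for primary granule and green for later genes. All intervals cross 0 except those of Camp for p107 loss (-0.79 to -0.06) and for Rb1;p107 DKO against Rb1;p130 DKO (-1.27 to -0.06).

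Groups without overlap were few. Ltf did not overlap in p107;p130 DKO against p130 KO (1 of 10 members; 2.12% of all genes), where its log2 difference was -0.56 (95% interval -1.18 to 0.06). S100a8 and Ltf did not overlap in p130 KO against wild type (2 of 10; 10.4% of all genes), with log2 differences of 0.36 and 0.59. None of these differences passed the test. In the other 9 pairs of genotypes compared, 0 of 10 were separate. Over all genes the share without overlap was 27.6% for Rb1 KO against wild type, 17.3% for Rb1;p107 DKO against Rb1 KO, 5.93% for TKO against wild type, and 0.0472% to 1.95% in the other 6 pairs.

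The members differed more between arrays of 1 genotype than the median gene. The pooled SD within genotypes was 0.96 on the log2 scale for Elane, above 99.6% of the genes tested, and 0.74 for Ctsg, above 98.7%. It was 0.59 for Camp, 0.56 for Lcn2, 0.55 for Prtn3, 0.49 for Ngp, 0.47 for Mpo and for Ltf, 0.45 for S100a9 and 0.39 for S100a8. The median gene had 0.30. Genotype held between 8.06% of the variance (S100a9) and 26.0% (Camp), against 22.3% for the median gene.

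Individual arrays moved many members at once. Deviations here are log2 distances from the mean of the array's own genotype. On TKO array 1 all 6 later genes were high, by 0.68 for S100a8 to 1.41 for Ltf, while the 4 primary granule genes lay between -0.05 and 0.21. TKO array 2 also had later genes above (0.24 to 0.38) and primary granule genes below (-0.61 to -0.34) the mean. TKO arrays 4 and 6 had primary granule genes higher by 0.49 to 0.86. On array 6 all 6 later genes were below the mean (-0.28 to -0.01), while on array 4 they ran from -0.30 to 0.31, with 3 of 6 above it. TKO array 3 was low in all 10 (-1.23 to -0.26). TKO array 5 was low in the later genes (-0.84 to -0.52), with the primary granule genes between -0.22 and 0.15. The 6 TKO arrays thus differed from each other in both sets. Arrays 1, 2 and 3 are in array group 3, arrays 4 and 6 in group 2, and array 5 in group 1.

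In the Rb1;p130 DKO, arrays 2, 3 and 4 were high in all 10 genes, Elane by 1.24, 1.57 and 0.72. Arrays 6 and 9 were low in the primary granule genes, with Elane at -1.97 and -2.32. Array 9 was also low in the 6 later genes (-1.12 to -0.49), whereas on array 6 S100a8 stood at 0.06. In the p130 KO, array 2 was high in all 10, by 0.24 for Ltf to 1.22 for Elane. Of the 2 Rb1 KO arrays, array 2 was above array 1 in all 10 genes.

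**Figure D3:**
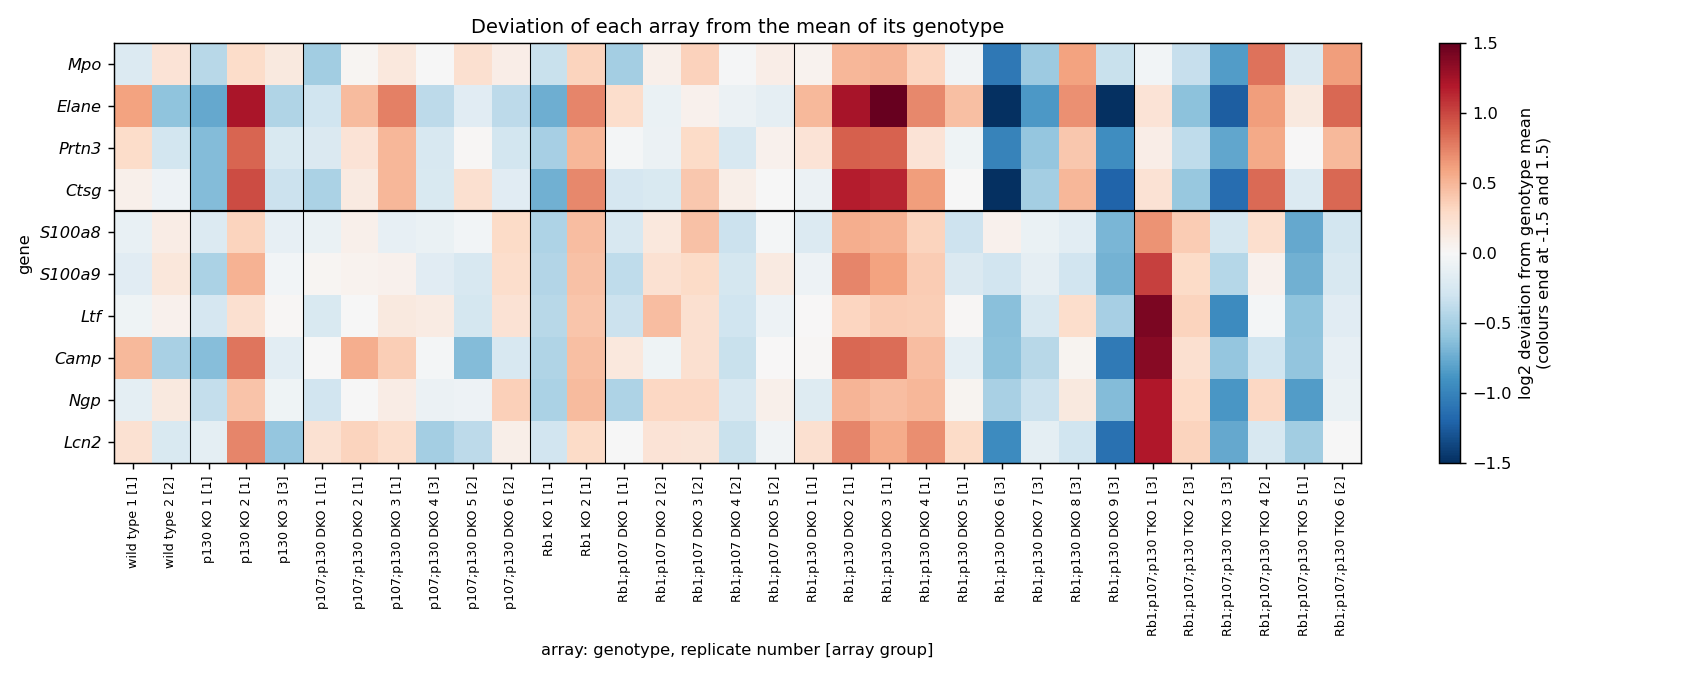
Log2 deviation (colour) of each gene (rows) on each of 33 arrays (columns) from the mean of its genotype; array groups are in brackets, and the p107 KO is left out because it has 1 array. The 6 later genes are red on TKO array 1, where Mpo is at -0.05, and Elane is darkest blue on Rb1;p130 DKO arrays 6 and 9.

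The members varied together, most closely within each set. Over 33 arrays (deviations from genotype means), Pearson r ran from 0.73 to 0.96 among the 6 pairs of primary granule genes, with a median of 0.91. Among the 15 pairs of later genes it ran from 0.69 to 0.95 (median 0.82), and over the 24 pairs across the sets from 0.40 to 0.73 (median 0.57). Spearman rho ran from 0.71 to 0.95, 0.60 to 0.92 and 0.30 to 0.73. Over the 45 pairs, the largest Benjamini-Hochberg adjusted p was 0.0221 for r (two-sided permutation test, 100000 resamples). The arrays were shuffled freely across genotypes and array groups, as if independent, so these p-values may be too small. Without the 2 arrays farthest from the median of the first gene, the lowest r was 0.63, 0.63 and 0.20. The highest were 0.957 for Prtn3 with Ctsg, 0.956 for Elane with its neighbour Prtn3, 0.947 for Ltf with Ngp and 0.930 for S100a8 with its neighbour S100a9. The lowest was 0.40, for Mpo with S100a8.

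The relation across the sets depended on the array group. Its median r was 0.80 in array group 1 (n = 15), -0.13 in array group 2 (n = 9) and 0.61 in array group 3 (n = 9), so it did not hold in array group 2. On log2 signals, with genotype means left in, the median in array group 2 was 0.29 (-0.08 to 0.69, n = 10), of the opposite sign. Within the sets the relation held in all 3: the lowest r was 0.85, 0.82 and 0.77 among primary granule genes in groups 1, 2 and 3, and 0.82, 0.35 and 0.75 among later genes. The lowest value of all within a set was that of S100a8 with Camp in array group 2. These correlations describe whole liver RNA, in which all members share the same extract and array.

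**Figure D4:**
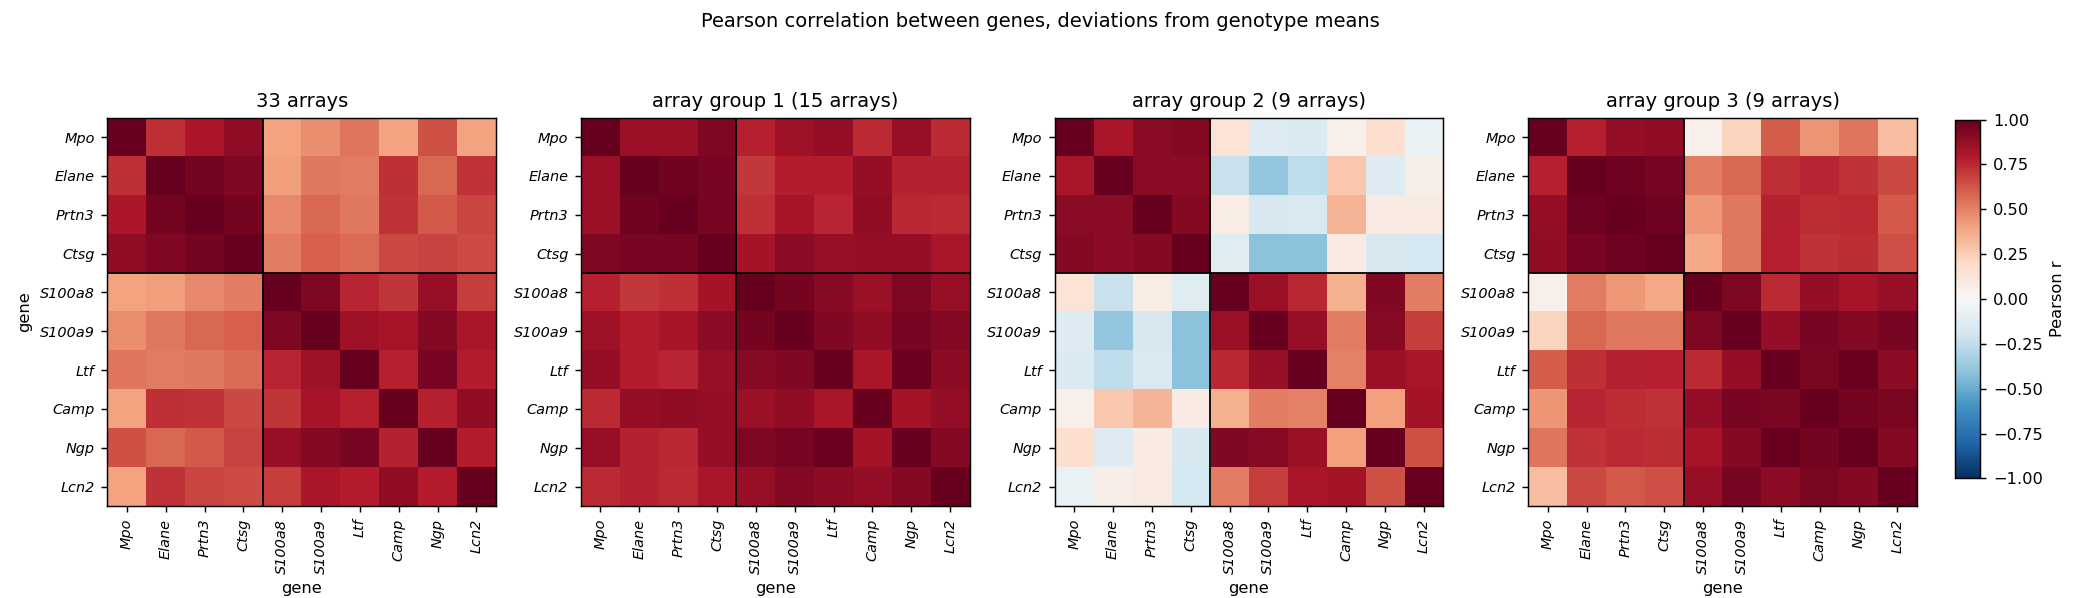
Pearson r (colour) between the 10 genes, from deviations from genotype means over 33 arrays and within each inferred array group; black lines part the primary granule genes from the later genes. The 2 blocks on the diagonal are red in all panels, whereas the cross-set blocks range from a median of 0.80 in group 1 to -0.13 in group 2.

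The array groups touched the members unevenly. They held 44.5% of the variance of Elane, 34.0% for Prtn3, 33.2% for Mpo, 31.4% for Camp, 31.1% for Ctsg and 28.8% for Lcn2, but 2.36% for Ltf, 2.10% for Ngp, 0.43% for S100a9 and 0.12% for S100a8. The median gene had 21.2%. Elane averaged 2593 ± 1254 (SD, n = 15), 1546 ± 311 (n = 10) and 1019 ± 724 (n = 9) in array groups 1, 2 and 3. Camp averaged 4480 ± 1925, 2387 ± 409 and 3610 ± 1765, while S100a8 averaged 21345 ± 6638, 21037 ± 3753 and 20796 ± 4810. With array group as a block, the median log2 difference of the primary granule genes for p130 loss was 0.11 in place of -0.23, and for Rb1 loss -0.04 in place of -0.20. For p107 loss it was -0.23 in place of -0.26, while the 6 later genes ran from -0.21 to -0.12 in place of -0.42 to -0.08. Within array group 1, p107 loss had a median of -0.48 for primary granule and -0.59 for later genes, and within group 2, where 1 array carries p107, 0.13 and 0.11. For p130 loss the medians were 0.21 and 0.40 within group 1 and 0.03 and -0.10 within group 2, and for Rb1 loss -0.06 and -0.04 within group 1 and 0.26 and 0.15 within group 2. Within group 3, where all arrays lack p130 and 2 carry Rb1, the medians were -0.73 and 0.03 for Rb1 loss and -0.26 and 0.20 for p107 loss. The part of the array groups in these differences was not tested further. Elane was the only member called within an array group, for Rb1 loss in group 2 (0.46 ± 0.10, SE; limma adjusted p = 0.0345), against -0.22 over all arrays. The share of all genes called in that fit is not given here, so this call is not set against a background.

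Of 12713 genes searched, those most like the primary granule genes over 34 arrays, by mean Pearson r of deviations from genotype means, were Ms4a3 (0.91), Fcnb (0.85), Cmtm7 (0.84), Tifab (0.84), Atp8b4 (0.83) and Fcgr2b (0.82). Ms4a3 is a known marker of granulocyte and monocyte progenitors, and Fcnb encodes ficolin B. The later genes were most like Fpr2 (0.85), Anxa1 (0.85), Lyz1 (0.85), Ifitm6 (0.84), Lyz2 (0.83) and Stfa2l1 (0.83). Fpr2 encodes a formyl peptide receptor, Anxa1 its ligand annexin A1, and Lyz1 and Lyz2 the lysozymes, whose near-identical sequences could share probes. Ms4a3, Fcnb, Anxa1 and Lyz2 stood in the fixed list of other granule genes. Mean r with the other set was lower, at 0.66 for Ms4a3 and 0.54 for Fpr2.

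Other neutrophil genes also had few calls. At most 2.26% of all genes were called in any comparison, so 0 calls in lists this small lie near the background. Of the 14 other granule and secretory vesicle genes, 0 were called in the 15 comparisons. Their likeness to the primary granule genes had a median r of 0.56 and to the later genes 0.65. They included Olfm4 (signal 1103 to 4611), Lyz2 (2598 to 9256), the gelatinase gene Mmp9 (127 to 623) and the collagenase gene Mmp8 (121 to 881). Of the 5 NADPH oxidase genes, which make the respiratory burst, 0 were called, and likeness had medians of 0.56 and 0.70, with Cybb at 0.82 for the later genes. Of 13 regulators and receptors, 0 were called, and likeness had lower medians, of 0.30 with the primary granule genes and 0.41 with the later genes. Cebpa had signals of 303 to 1067, Spi1 (PU.1) of 212 to 558, the G-CSF receptor Csf3r of 126 to 371 and Gfi1 of 59.6 to 297. Cxcr2, a chemokine receptor of mature neutrophils, reached a signal of 100 on 2 arrays only.

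Of the 8 genes for handling granule proteins, 1 was called. Likeness of this list had medians of 0.37 with the primary granule genes and 0.40 with the later genes. Ctsc encodes cathepsin C, the peptidase that activates elastase, cathepsin G and proteinase 3. With Rb1 present its signal was 3304 ± 755 (SD, n = 12), from 2366 to 4873, and without Rb1 it was 2550 ± 524 (n = 22), from 1759 to 3533. The ranges overlapped, and 20 of 22 arrays without Rb1 lay below the mean of those with it. The log2 difference was -0.36 ± 0.10 (SE; limma adjusted p = 0.0450), with a 95% interval of -0.56 to -0.16, at 65 genes called lower of 12723 (0.511%). Its other probe sets are dim, at means of 105 and 47.9 with Rb1 and 117 and 54.5 without, and do not go the same way. With the mean of its probe sets the difference was -0.02 (limma adjusted p = 0.97). It was -0.47 (0.195) within array group 1, -0.45 (0.114) within array group 2 and -0.18 (0.799) within array group 3. Leaving out 1 array in turn kept the call in 12 of 34 fits (adjusted p from 0.0124 to 0.115): those without wild type 1 or 2, p130 KO 3, p107;p130 DKO 4 or 6, Rb1 KO 2, Rb1;p107 DKO 1 or 3, Rb1;p130 DKO 2, 3 or 9, or TKO 4. Leaving out any of the other 22 ended it. The direct contrasts of Ctsc were not called, at -0.43 for TKO against p107;p130 DKO (limma adjusted p = 0.459), -0.40 for Rb1;p130 DKO against p130 KO (0.893) and -0.10 for Rb1 KO against wild type (1.00).

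**Figure D5:**
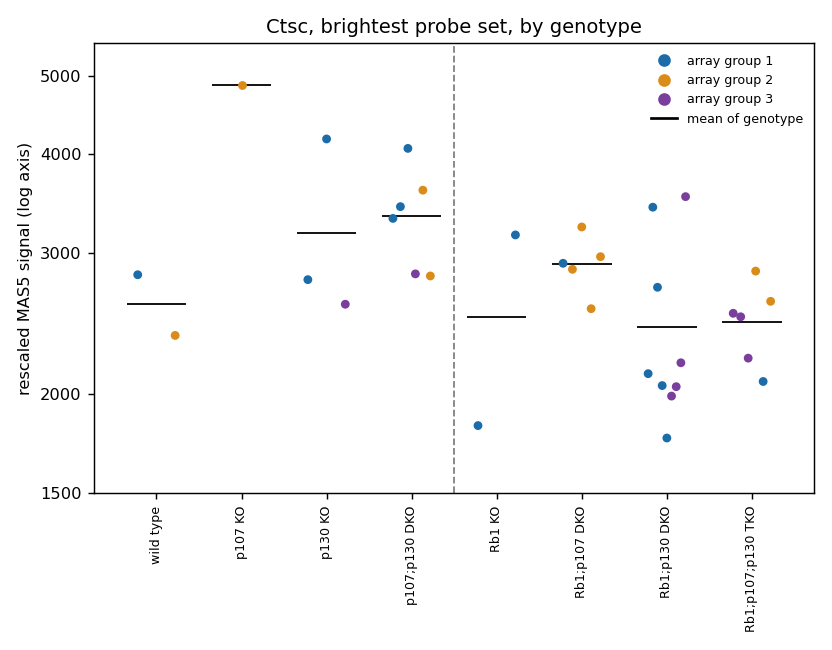
Rescaled MAS5 signal (log axis) of the brightest Ctsc probe set on each array, by genotype, with genotype means as bars and Rb1 absent to the right of the dashed line. The arrays without Rb1 run from 1759 to 3533 and those with it from 2366 to 4873.

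Markers of other cell types were also measured. Their counts of 0 called likewise lie near the share called over all genes. Of 12 macrophage genes tested, 0 were called in any comparison, and Cd163 stayed below a signal of 100 on all arrays. Of 7 genes of eosinophils, basophils and mast cells, 0 were called, and Fcer1a and Il5ra stayed below 100 on all arrays. Of 8 hepatocyte, 5 acute phase, 5 lymphoid and 6 megakaryocyte genes, 0 were called. Of the 9 acute phase genes listed, Saa1, Saa2, Orm1 and Orm2 were below 100 on all arrays, and Saa3 and Hamp reached 100 on 16 and 19. The other 3 exceeded it on all 34, with Lbp at 332 to 1277, Itih4 at 506 to 2297 and Fgg at 5095 to 12713. Of 7 erythroid genes, Epor was called lower in 5 comparisons and no other gene was called. Likeness to the primary granule genes had a median r of 0.37 for macrophage, 0.21 for hepatocyte, 0.57 for acute phase, 0.26 for erythroid, 0.39 for lymphoid and -0.26 for megakaryocyte genes. For the later genes these were 0.33, 0.29, 0.44, 0.09, 0.28 and -0.29. The eosinophil, basophil and mast cell genes had medians of 0.48 with the primary granule genes and 0.48 with the later genes. The part of these cells in the array differences was not tested.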

How the data were processed

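Per the submitters' processing notes, the authors made the deposited values with MAS5 in GCOS 1.4. They are intensity, linear signals of 45037 probe sets, with trimmed means of 495.4 to 497.7 per array. Detection calls and scan dates were not used here. The number of arrays limits the precision. Probe sets were named through the platform annotation and RefSeq (GRCm38.p6): 34945 had 1 symbol, 932 several and 9160 none. Each array was brought to a 2% trimmed mean of 500. The probe set with the highest mean stood for a gene, and genes with a signal of 100 on at least 2 arrays were tested.

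limma 3.58.1 in R 4.3.3 was run on log2(signal + 32) (lmFit, eBayes with trend, two-sided), so fold changes are on that scale and understate changes of low genes. One fit had a mean per genotype over all 34 arrays, giving 11 contrasts and 1 interaction. Another was additive, with a term for each missing gene. Array groups came from clustering within-gene probe set differences over 2997 genes, cut at a set number of 3 groups. Correlations used permutation in SciPy 1.17.1. The steps were tested on simulated data.

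Named genes are the members, called genes of the 13 lists with the largest statistic (up to 4 per list), the brightest and defining markers of lists, and the 6 genes most like each set. The lists were primary granule, later, other granule, granule protein handling, regulator, NADPH oxidase, macrophage, eosinophil and mast cell, hepatocyte, acute phase, erythroid, lymphoid and megakaryocyte genes. Members and lists were chosen with earlier results of these data known. Other pseudocounts, filters, normalization, blocks and left-out arrays were tried as alternatives.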

Additional observations from a re-analysis of the deposited data

Results flagged for a closer look

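One of 40 sets of 4 to 10 arrays held an array far from the others. Mpo stood at 9185 on p107;p130 DKO array 1, while the other 5 arrays of that genotype ran from 13129 to 15531. The gap to the nearest array was 0.68 of the whole range on the log2 scale. Chance puts about 1 set in 20 past this limit. On the same array Elane deviated from its genotype mean by -0.29, Prtn3 by -0.21, Ctsg by -0.47 and S100a9 by 0.03.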

How the results depend on the processing

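The count of members called stayed at 0 in all 15 comparisons under pseudocounts of 1 and 100, both other filters, quantile normalization, eBayes without trend, the mean of all probe sets, array group or sex as a block, array group 1 alone, without Rb1;p130 DKO arrays 8 and 9, and with any 1 array left out (in the comparisons it enters). It was also 0 in the 12 comparisons fitted on only the arrays compared and in the 7 that array group 3 allows. The 2 exceptions follow. With the replicate block, the count was 1 for Rb1;p107 DKO against Rb1;p130 DKO: Camp at -0.98 ± 0.28 (SE; limma adjusted p = 0.0410). Within array group 2 it was 1 for Rb1 loss: Elane at 0.46 ± 0.10 (limma adjusted p = 0.0345), the reverse of -0.22 over all arrays. The share of all genes called is not given for these 2 fits, so neither count is set against a background. Uncalled differences changed sign in 227 of 2350 values, among them 57 of 150 within array group 1, 35 of 60 within group 2, 21 of 70 within group 3, 29 of 150 with the array group block, 23 of 150 with the replicate block and 20 of 150 without p130 KO array 2, and in 212 of 2340 with 1 array left out. Such values have no settled direction. Some of the 2350 values could not move: those of both other filters, eBayes without trend, the mean of probe sets and only the arrays compared. These fits had 0 sign changes, in 150 values each and 120 for the arrays compared. The share of 2350 therefore understates the changes under the other settings. Whether replicate numbers pair the arrays was not settled. Same-number arrays of different genotypes had a mean r of 0.062, against -0.011 for other numbers. Of the same-number pairs, 27 of 67 correlated above 0.1, and 9 of 33 arrays were closest to their own number. The replicate block changed no other member call. Single members have 1 probe set, so no second one could be tried. Array group 2 allows 6 of the comparisons, and p130 loss cannot be fitted in array group 3. Leaving out TKO array 1 or p130 KO array 2, and the fits within array groups, were chosen after seeing the data. On log2 signals, 43 of 45 pairs kept an adjusted permutation p under 0.05. The Ctsc call was also lost with no filter (0.0589), quantile normalization (0.0564), no trend (0.0624) and the mean of probe sets (0.97).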

Other observations

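Eosinophil granule genes were also present. Prg2, which encodes major basic protein, had a median signal of 3436 and a range of 1617 to 6202 over the 34 arrays, and Epx, eosinophil peroxidase, had a median of 707 and a range of 314 to 1181. The mast cell and basophil genes were dimmer: Cpa3 had a median of 238, Cma1 of 97.9 and Mcpt8 of 78.7, and Mcpt8 reached a signal of 100 on 13 arrays. Mean r with the primary granule genes was highest in this list for Mcpt8, at 0.77.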
